A study of Homo sapiens with 2 samples.

Results

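The clustered and linker histone genes were followed across both arrays of a study of PLC/PRF/5, an established cell line from a human hepatocellular carcinoma. Members were the probe sets annotated to exactly 1 gene symbol that begins with H1-, H2AC, H2BC, H3C or H4C and goes on with a digit. The rule found 58 probe sets of 50 genes, out of 19775 genes on the array, and used no measured value. It was chosen, however, with earlier results of these data known. Of these 50 genes 46 code for protein, while H1-10-AS1 is a long noncoding RNA and H1-9P, H2AC5P and H4C10P are pseudogenes. The class sizes were 11 genes for the linker histone H1 and 9, 14, 7 and 9 genes for the core histones H2A, H2B, H3 and H4.

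The study held 2 RNA samples, each on 1 Affymetrix U133 array and with no replicate. One came from chemoresistant hepatospheres, PLC/PRF/5 tumour spheroids treated with cisplatin, which crosslinks DNA, and doxorubicin, which poisons topoisomerase II. The other came from differentiated cells, spheroids that received fetal bovine serum and attached to the dish. Culture form, serum and attachment therefore differed together, and no label tells whether the differentiated cells had also met the drugs. The comparison asks what sets drug-resistant spheroids apart from their differentiated counterparts, and without replicates no difference has an error or a test. Signals are linear MAS5 values, and differences are log2 signals in hepatospheres minus those in differentiated cells. Signals under a floor of 84.1, the higher of both arrays' medians, were set to the floor, so that such a gene has only a lower bound, written "at least". All 9 measured liver markers were above the floor on both arrays, with 3 past 2-fold upwards in hepatospheres and 3 downwards. ALB, serum albumin, had 10276 in differentiated cells and 27887 in hepatospheres, while GPC3 went from 3103 to 375 and AFP, alpha-fetoprotein, from 2451 to 433. Of 11 markers of leukocytes, endothelium and fibroblasts 7 were below it on both, including PTPRC, CDH5, VWF and COL1A2, and the signal summed over all 11 was 4189 and 4906. PECAM1, CD79A, COL1A1 and DCN reached the floor, with most of that sum from PECAM1 at 3388 and 3787.

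Histones package DNA. H2A, H2B, H3 and H4 form the octamer that DNA wraps around, and the linker histone H1 sits where DNA enters and leaves it. Most of these genes lie in clusters, carry no introns and are expressed in S phase, when new DNA needs new histones. Their mRNAs usually end in a stem-loop bound by SLBP instead of a poly(A) tail. A few members can also make polyadenylated transcripts from a signal further downstream, a form known from cells that have left the cell cycle, and H1-10 is replication-independent and polyadenylated. The labels name biotin as label but not the primer of the labelling reaction, so how well each array read transcripts without a tail is not given in the sources used here.

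The promoters of 43 members could be read from RefSeq (GRCh38.p14). Those of 5 genes are printed because they span the pattern found: the linker histone gene H1-2 and 3 core histone genes with higher signals in hepatospheres, and H4C4, which was not higher. Each is the stretch of 250 bases before the start of transcription, 5′ to 3′, with capitals at 3 motifs that a search on both strands found, namely the TATA box TATAAA, the box CCAAT bound by the factor NF-Y, and the octamer ATTTGCAT.
H1-2 (chr6:26056471-26056720, minus strand): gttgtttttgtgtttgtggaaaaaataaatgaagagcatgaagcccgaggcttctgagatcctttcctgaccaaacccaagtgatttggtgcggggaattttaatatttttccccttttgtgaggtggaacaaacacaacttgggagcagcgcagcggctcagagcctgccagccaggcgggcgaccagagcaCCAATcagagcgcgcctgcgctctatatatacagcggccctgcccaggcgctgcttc
H2AC6 (chr6:26123922-26124171, plus strand): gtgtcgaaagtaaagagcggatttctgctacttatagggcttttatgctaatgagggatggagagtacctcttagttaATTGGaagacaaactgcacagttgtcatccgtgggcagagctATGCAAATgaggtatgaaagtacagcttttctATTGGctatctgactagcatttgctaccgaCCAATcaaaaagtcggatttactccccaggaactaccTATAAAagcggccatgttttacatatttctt
H2BC5 (chr6:26157871-26158120, plus strand): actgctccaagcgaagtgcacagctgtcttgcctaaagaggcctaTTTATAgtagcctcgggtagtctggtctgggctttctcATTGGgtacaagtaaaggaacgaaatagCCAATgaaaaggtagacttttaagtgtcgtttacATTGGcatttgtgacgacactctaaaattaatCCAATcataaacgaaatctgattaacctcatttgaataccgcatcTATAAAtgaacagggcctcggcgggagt
H2BC12 (chr6:27146859-27147108, minus strand): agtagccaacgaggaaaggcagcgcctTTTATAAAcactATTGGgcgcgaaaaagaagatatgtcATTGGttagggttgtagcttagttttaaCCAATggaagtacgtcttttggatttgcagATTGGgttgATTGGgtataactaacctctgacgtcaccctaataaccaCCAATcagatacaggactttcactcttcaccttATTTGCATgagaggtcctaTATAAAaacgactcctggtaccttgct
H4C4 (chr6:26189113-26189362, minus strand): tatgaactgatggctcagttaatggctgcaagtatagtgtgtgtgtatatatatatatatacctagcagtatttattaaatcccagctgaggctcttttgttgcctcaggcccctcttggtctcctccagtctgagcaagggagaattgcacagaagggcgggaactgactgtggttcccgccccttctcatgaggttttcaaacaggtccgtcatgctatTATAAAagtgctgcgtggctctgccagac

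TATAAA was in 28 of the 43 member promoters, or 65.1%, against 11.1% of 27305 RefSeq promoters of the same length. CCAAT was in 37 of 43, against 33.0% of all promoters. It was in every promoter of the H2A, H2B and H3 genes read (8, 13 and 6) but in 2 of 7 of the H4 genes. The octamer, the letters bound by the POU factor family, was in 6 of 8 H2A and 10 of 13 H2B promoters and in 0 of the 9, 6 and 7 promoters of H1, H3 and H4, while 1.66% of all promoters held it. TATAAA matches can overlap on opposite strands, and a promoter was counted once per motif. Among the members, 4 H2A and H2B pairs run in opposite directions with 194 to 246 bases between their starts. Their windows share most of their bases, so the same site could be counted for both partners. The only TATAAA of H2BC4, H2BC14 and H2BC17 lay on the opposite strand, 220 to 209 bases before the start. The octamer stood 46 to 39 bases before the start in both H2BC12 and H2BC21, and 130 to 123 bases before it, on the opposite strand, in H2AC6. These matches describe letters, not binding, and a promoter without a match only lacks these letters in this window.

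Histone signals were higher in hepatospheres across most of the members that could be measured. Of the 50 genes 23 reached the floor on at least 1 array (46.0%, against 64.6% of all genes), each read through its brightest probe set. Among the 23, 14 were at least 2-fold higher and 0 at least 2-fold lower, where 12.5% of the 12766 genes that reached the floor were 2-fold higher and 8.83% 2-fold lower. Their median difference was 1.33, against 0.05 for all genes. Of the 23, 10 reached the floor in hepatospheres only and so had to read higher, and H4C4 reached it in differentiated cells only and had to read lower. In the 12 members above the floor on both arrays, 10 were at least 2-fold higher, against a background of 11.0% of 11063 such genes. Without any floor or filter, 38 of all 50 members had a signal ratio above 1, against 55.5% of 19775 genes, and the median log2 ratio was 1.13, against 0.12. Among the 27 members below the floor on both arrays, 16 had a ratio above 1, near the 60.5% of all genes below it on both. Directions hold relative to the bulk of genes. Scaling the arrays to their poly(A) control RNAs, which read 2.04-fold higher in hepatospheres, moved the median of all genes from 0.05 to -0.93. The members then had a median of 0.67, with 6 of 18 at least 2-fold higher, 0 lower and 14 above 0, while the split of all genes turned from 1601 higher and 1127 lower to 399 higher and 5764 lower. Median centring gave 1181 higher and 1902 lower genes, and 13 of 23 members higher. The 3′ to 5′ signal ratio of ACTB was 1.48 in differentiated cells and 2.64 in hepatospheres, and that of GAPDH 0.987 and 1.04. The part of these array differences in the histone values was not tested.

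**Figure D1:**
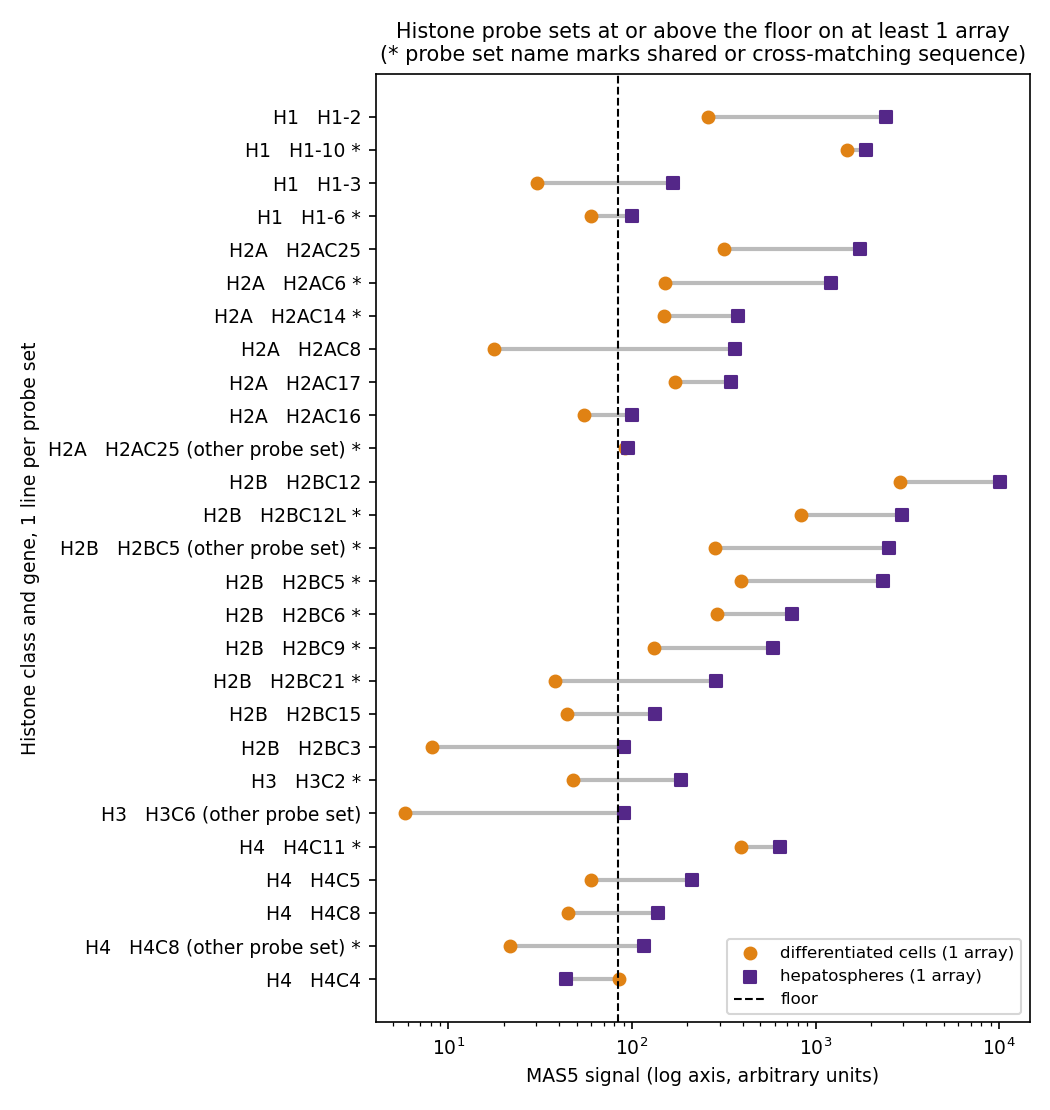
MAS5 signal (log axis) of the 27 histone probe sets that reached the floor of 84.1 (dashed line), with 1 point for the differentiated array and 1 square for the hepatosphere array, grouped by histone class. H4C4 alone reads lower in hepatospheres, and H2BC12 spans 2868 to 10105.

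Linker histones differed widely among themselves. H1-2, a somatic linker histone of the chromosome 6 cluster that can make polyadenylated transcripts, went from 260 in differentiated cells to 2426 in hepatospheres, 9.32-fold apart, and had the highest difference of all 23 measured members (3.22). It stayed the highest linker value under every scaling, from 2.19 with the poly(A) controls to 3.29 with loess. H1-10, the replication-independent linker histone on chromosome 3, read 1475 and 1886, a difference of 0.36. This difference turned to -0.67 with poly(A) control scaling, where the median of all genes was -0.93. H1-3 was below the floor in differentiated cells at 30.2 and read 167 in hepatospheres, at least 1.99-fold higher. H1-6, the testis linker histone, read 60 and 100 and so was at least 1.19-fold higher. Only H1-2 of these 4 was 2-fold higher, and the linker median was 0.67. The remaining linker members, H1-1, H1-4, H1-5, H1-7, H1-8, H1-9P and H1-10-AS1, were below the floor on both arrays. Without the floor 7 of the 11 linker members had a ratio above 1, against 55.5% of all genes. Their median log2 ratio was 0.36, against 0.12 for all genes.

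Core histones had 13 of 19 measured genes at least 2-fold higher, 0 lower and a median of 1.34. The difference between the linker and core medians could not be tested on 1 array per group, and the single highest value lay in the linker class. Among the H2A genes, 5 of 6 measured were at least 2-fold higher, with a median of 1.72. H2AC6, which can make polyadenylated transcripts, went from 152 in differentiated cells to 1213 in hepatospheres, 7.98-fold higher. H2AC25, an H2A gene on chromosome 1, read 316 and 1755, 5.55-fold higher, on its brightest probe set. The other H2AC25 probe set, marked as cross-matching, read 91.7 and 95.2, so that the mean over both was 1.26 on the log2 scale against 2.47. H2AC8 went from 17.8, far below the floor, to 363, at least 4.31-fold higher. H2AC14 and H2AC17 read 150 and 172 in differentiated cells and 379 and 348 in hepatospheres, 2.53-fold and 2.02-fold higher. H2AC17 stood at 0.76 with median centring and at -0.015 with poly(A) control scaling, where all genes had a median of -0.93. Its place past 2-fold thus depended on the scaling. H2AC16 read 55 and 100, at least 1.19-fold higher.

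H2B had the most measured members, 8 of 14, of which 6 were at least 2-fold higher (median 1.79). H2BC12 went from 2868 in differentiated cells to 10105 in hepatospheres, 3.52-fold higher, on a probe set whose name marks no shared sequence. H2BC5 was higher on both of its probe sets, from 392 to 2322 (5.92-fold) and from 284 to 2502 (8.82-fold). H2BC12, H2BC5 and H2BC21 can all make polyadenylated transcripts. H2BC9 and H2BC6 read 132 and 292 in differentiated cells and 586 and 745 in hepatospheres, 4.46-fold and 2.55-fold higher. H2BC12L, a gene on chromosome 21 close in sequence to the cluster genes, read 832 and 2952, 3.55-fold higher, on a cross-matching probe set. H2BC21, a chromosome 1 gene, went from 38.2 to 285, at least 3.39-fold higher. H2BC15 and H2BC3 reached the floor in hepatospheres only, at 134 and 90.2, and their bounds were 0.67 and 0.10 on the log2 scale.

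Few H3 and H4 genes reached the floor on probe sets of their own, 1 of 7 and 4 of 9. H3C2, the measured H3 gene, went from 47.9 in differentiated cells to 185 in hepatospheres, at least 2.20-fold higher. The brighter H3C6 probe set stayed under the floor, with 16.1 and 57.8, and its other probe set read 5.83 and 90.3. Of 4 measured H4 genes, 1 was 2-fold higher (median 0.71). H4C5 read 59.6 and 212, at least 2.52-fold higher. H4C8 read 45.1 and 139 on one probe set and 21.7 and 117 on the other, at least 1.65-fold and 1.39-fold higher. H4C11 read 394 and 639, 1.62-fold higher, and stood at -0.33 with poly(A) control scaling, where all genes had a median of -0.93. H4C4 read 85.1 in differentiated cells, at the floor, and 43.8 in hepatospheres, a bound of -0.02.

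**Figure D2:**
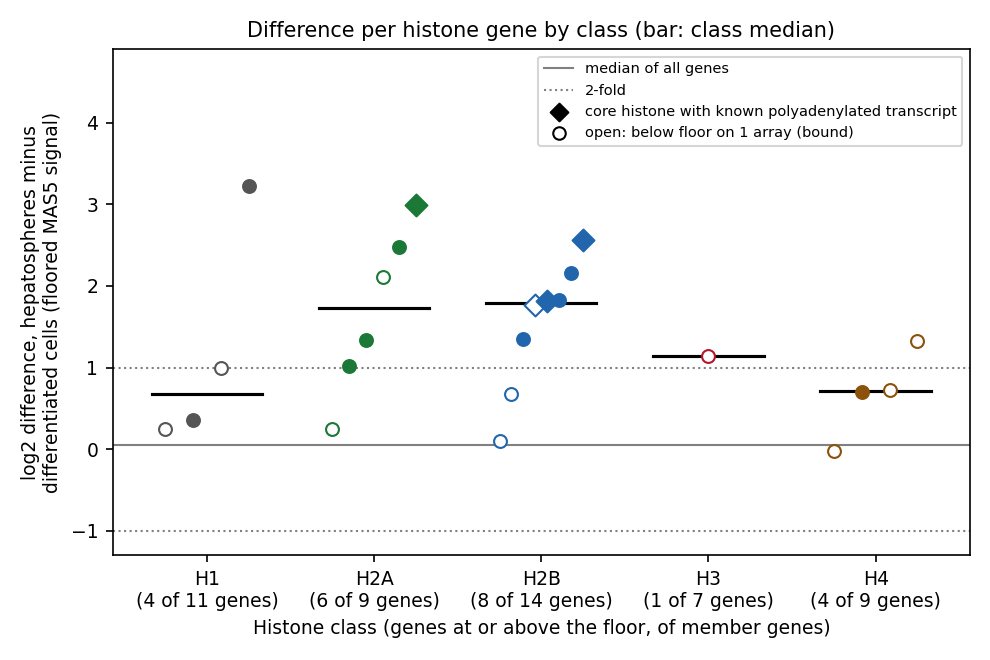
Difference in log2 floored MAS5 signal for each measured histone gene, by class, with class medians as bars, core genes with known polyadenylated transcripts as diamonds and genes below the floor on 1 array as open symbols. The 4 diamonds lie between 1.76 and 3.0, and H1-2 at 3.22 stands apart from the other linker genes. With poly(A) control scaling H1-10, H4C11 and H2AC17 lie below 0, and the median of all genes is -0.93.

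Core members known to make polyadenylated transcripts were past 2-fold where measured, under the deposited scaling. The list, drawn from textbook knowledge and not from a transcript annotation, held 5 core genes, H2AC6, H2BC4, H2BC5, H2BC12 and H2BC21. The floor was reached by 4 of the 5, which were at least 2-fold higher with a median of 2.19. Of these 4 only H2BC12 was read through a probe set whose name marks no shared sequence. With poly(A) control scaling H2BC12 and H2BC21 stood within 2-fold, at 0.79 and 0.98, and H2BC21, below the floor in differentiated cells, was also within it at 0.90 with the 60th-percentile floor. H2BC4, the remaining gene, did not reach the floor on its own probe set (32.9 and 60.4). Other core histones had 9 of 15 measured genes at least 2-fold higher and a median of 1.14, and 19 of the 34 did not reach the floor. In the linker class, H1-2 (3.22) can make such transcripts and H1-10 (0.36) always does, so a high and a low value both occurred among linker genes with a poly(A) tail. The lists overlapped in value: H2AC25 (2.47), H2BC9 (2.16) and H2AC8 (at least 2.11) of the other core genes lay above H2BC12 (1.82) and H2BC21 (at least 1.76). No test of the difference between the lists was possible.

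Sequence shared between histone genes limits how far a value belongs to 1 gene. Of the 27 member probe sets at the floor or above, 14 have names that mark shared or cross-matching sequence (51.9%). With no floor applied, 15 of all 58 member probe sets have such names (25.9%), against 34.8% of the 41091 probe sets with 1 symbol. Among the genes read by such probe sets 8 of 11 were at least 2-fold higher (median 1.35), and among those read by unmarked probe sets 6 of 12 (median 1.0). The 6 with an unmarked probe set were H1-2, H2AC8, H2AC17, H2AC25, H2BC12 and H4C5. An unmarked name does not exclude shared sequence. Probe sets annotated to 14 H4 genes, to 10 H3 genes and to 6 H2A genes also have unmarked names. The 8 higher genes H2AC6, H2AC14, H2BC5, H2BC6, H2BC9, H2BC12L, H2BC21 and H3C2 had no measured probe set without such a mark. The same held for H1-6, H1-10 and H4C11.

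A further 20 probe sets are annotated to several histone genes at once and were not members. Of the 16 that reached the floor, 9 were at least 2-fold higher and 0 lower, with a median of 1.13. The background was 11.4% higher and 9.23% lower among 29167 probe sets. Some of the 16, including some of the 9, reached the floor in hepatospheres only and so could not read lower. The largest difference was on a probe set for H2AC18 and H2AC19, an H2A pair of chromosome 1, with 334 on the differentiated array and 3153 on the hepatosphere array (3.24). Another probe set for this pair read 384 and 1690 (2.14), and the remaining one 45.9 and 84.6 (at least 0.01). All 5 H2B probe sets of this kind were higher, from at least 0.89 to 2.02. H2B probe sets for H2BC4, H2BC6, H2BC7, H2BC8 and H2BC10 together read 156 and 631 on one of them and 117 and 341 on another. An H3 probe set for 10 genes read 81.2 and 228, at least 1.44 on the log2 scale.

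The shared H4 probe sets differed in direction. One of the 5 annotated to the same 14 H4 genes had signals of 31893 (differentiated) and 23201 (hepatospheres), a difference of -0.46. Of the other 4, 1 read 324 and 664 (1.03) and another 16.7 and 97.3 (at least 0.21). The remaining ones, at 57.3 and 60.2 and at 15.8 and 14.0, were below the floor on both arrays. Probe sets given the same 14 genes thus went both ways, and which of these genes each one read cannot be told from the annotation.

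**Figure D3:**
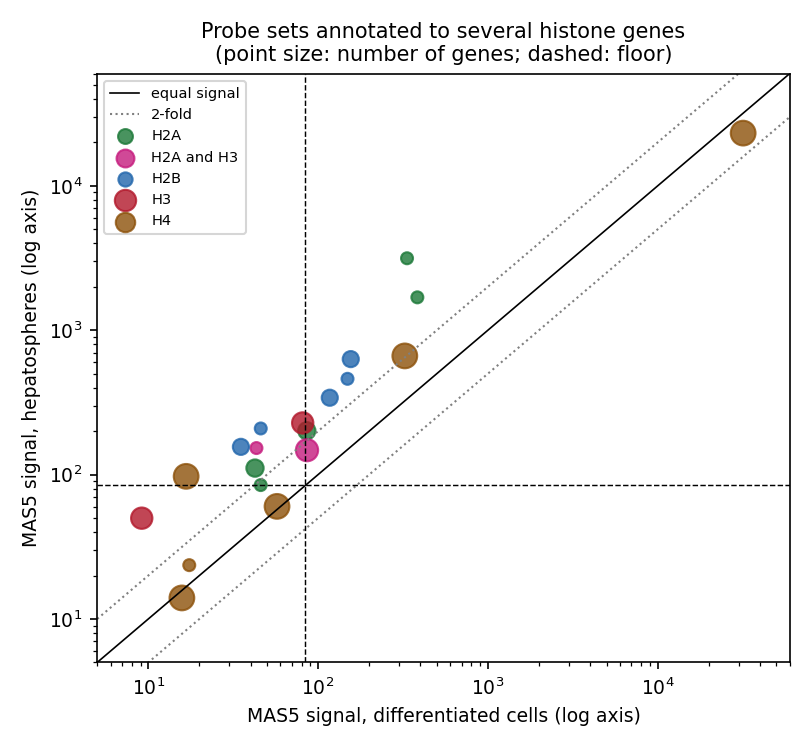
MAS5 signal in hepatospheres against differentiated cells (both log axes) for the 20 probe sets annotated to several histone genes, coloured by class, with point size for the number of genes. The H2A and H2B points above the floor lie above the line of equal signal, and 1 H4 point at 31893 and 23201 lies below it.

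Most members lie in 1 cluster on chromosome 6. In RefSeq gene order it runs from H2AC1 to H2BC17 and holds 42 of the 50 member genes. The floor was reached by 19 of these, and 11 were at least 2-fold higher (median 1.14). The 8 members elsewhere had 4 measured genes, H2AC25, H2BC21, H2BC12L and H1-10, of which 3 were 2-fold higher (median 1.79). The highest differences on chromosome 6 lay towards the H2AC1 end of this order, at H1-2, H2AC6 and H2BC5 (3.22, 3.0 and 2.57). Low values lay between them in the same stretch, at H2BC3 (at least 0.10), H1-6 (at least 0.25) and H4C4 (-0.02). The block at the H2BC17 end, with H2AC14, H4C11, H2BC15, H2AC16 and H2AC17, ran from 0.25 to 1.34.

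Genes that lie between the histone genes had a median between that of the histones and that of all genes. Of 28 non-histone neighbours in the chromosome 6 cluster 16 reached the floor, 4 were at least 2-fold higher and 0 lower (median 0.67). Over all histone clusters 20 of 33 neighbours were measured and 5 were 2-fold higher (median 0.67), where 12.5% of all genes were. With poly(A) control scaling the neighbours' median was -0.31 and that of all genes -0.93. The antiviral ubiquitin ligase gene TRIM38 read 181 and 544, 3.01-fold higher, but 0.69 on the log2 scale over all its probe sets. RPL32P3, a pseudogene of the chromosome 3 run, was 2.69-fold higher, the pseudogene ZNF204P 2.61-fold and the butyrophilin gene BTN3A2 2.22-fold. Neighbours and histones of a cluster share their place on the chromosome, and its part in the histone values was not tested.

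**Figure D4:**
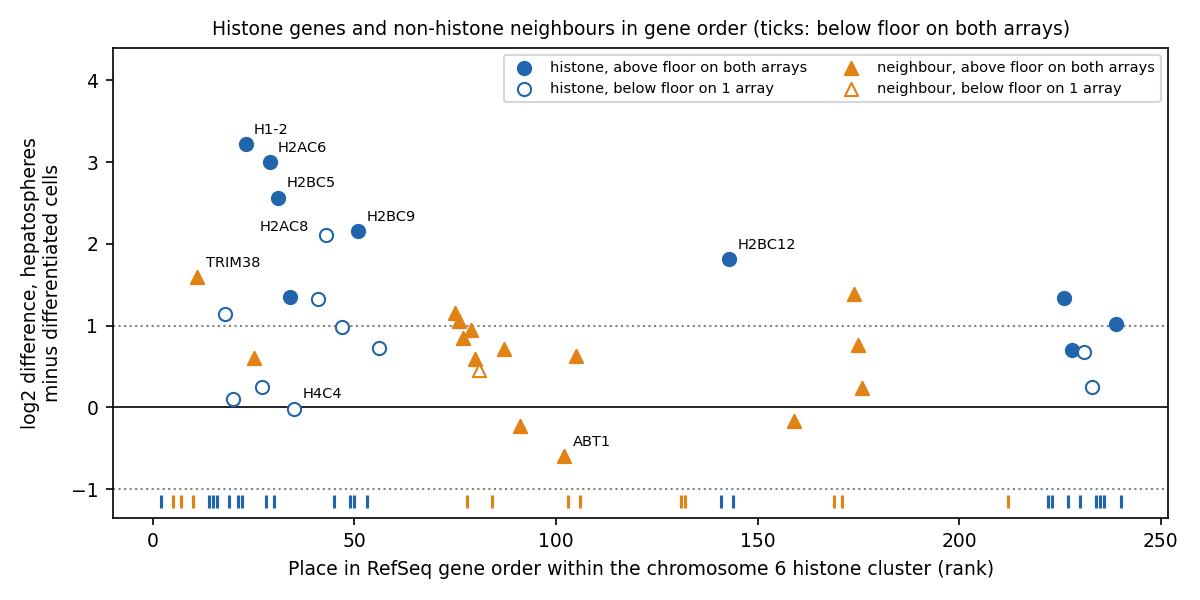
Difference in log2 floored MAS5 signal against place in RefSeq gene order for the histone genes (circles) and non-histone neighbours (triangles) of the chromosome 6 cluster, with open symbols for genes below the floor on 1 array and ticks for genes below it on both. H1-2, H2AC6 and H2BC5 lie above every neighbour, and ABT1 is the lowest neighbour at -0.59. The median of the neighbours over all clusters is below 0 with poly(A) control scaling, where that of all genes is -0.93.

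H2A and H2B genes often share a promoter region and run in opposite directions from it. In 4 such pairs both genes had a probe set of their own, with 194 to 246 bases between their starts. Exactly 1 partner reached the floor of 84.1 in all 4, where 46.0% of all members reached it. This depended on the floor: H2BC4, H2BC14 and H2AC15 also reach the 40th-percentile floor of 49.6. H2AC6 read 152 and 1213, while its partner H2BC4 read 32.9 and 60.4. H2AC14 read 150 and 379, and H2BC14 8.25 and 49.9. H2AC17 read 172 and 348, and H2BC17 47.0 and 28.3. H2BC15 read 44.3 and 134, and H2AC15 39.9 and 82.2. Levels cannot be set against each other between probe sets, so these pairs show which partner was measured and not which was more abundant.

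Of 22 measured genes of histone transcription and mRNA processing, 0 were at least 2-fold higher and 5 lower, where 8.83% of all genes were lower. The median was -0.50, with 6 above 0. The highest of these 6, named after their values were seen, were TUT7 (0.83), ZNF473 (0.82) and ERI1 (0.45), all of histone mRNA processing or decay and within 2-fold. SLBP, which binds the stem-loop of tailless histone mRNAs, went from 6135 in differentiated cells to 2268 in hepatospheres, 2.71-fold lower. NPAT, the coactivator of the clustered genes, read 853 and 357, 2.39-fold lower. CSTF2, a 3′ end cleavage factor, was 2.40-fold lower and the S-phase transcription factor E2F1 2.22-fold lower. CDK2, the kinase that acts on NPAT, was 2.11-fold lower and is named after its value was seen. NPAT and E2F1 stood at -0.97 and -0.96 with the mean over their probe sets, just within 2-fold.

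Histone chaperones, which carry new histones to DNA, were at least 2-fold lower in 11 of 21 genes, against 8.83% of all genes. There were 0 higher, and the median was -1.04. CHAF1B of the chromatin assembly factor was 4.50-fold lower, from 852 to 189. IPO4, an importin that carries histones, was 3.42-fold lower, and the H3 and H4 chaperones ASF1B and ASF1A 3.17-fold and 2.89-fold lower.

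Histone genes outside the rule were mostly lower too. The 8 measured had a median of -0.70, with 2 past 2-fold downwards, where 8.83% of all genes were, and 0 upwards. H2AX, the variant that is phosphorylated at DNA breaks, went from 6179 in differentiated cells to 1029 in hepatospheres, 6.0-fold lower. H2AZ2, a replacement variant, was 2.06-fold lower. Its difference of -1.04 stood within 2-fold at -0.99 with loess, and at -2.10 over all its probe sets and -2.95 without shared-sequence ones. H3-3A, the replacement H3, read 958 and 544 (-0.82). MACROH2A2 read 36.8 and 163, at least 1.94-fold higher. All 4 kept their sign under each scaling.

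S-phase genes were lower throughout on the brightest probe sets, with 11 of 14 past 2-fold, against 8.83% of all genes. Their median was -1.56. CDT1 was 4.0-fold lower, GINS2 3.79-fold, CDC6 3.78-fold and MCM4 3.68-fold. GINS2 stood at 1.25 without shared-sequence probe sets. In these bulk samples fewer cells in S phase and less RNA per cell cannot be told apart. The medians of the histone and S-phase genes were 1.33 and -1.56. With poly(A) control scaling the histone median was 0.67 and CDT1, GINS2, CDC6 and MCM4 stood between -3.03 and -2.91.

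**Figure D5:**
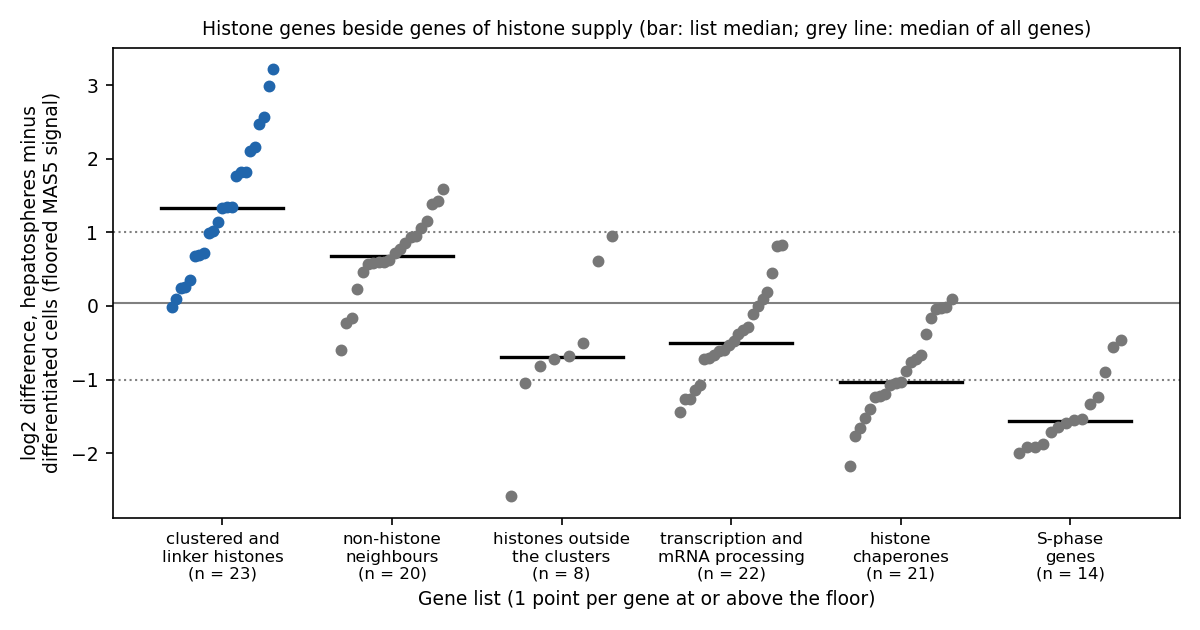
Difference in log2 floored MAS5 signal for each measured gene of 6 lists, with list medians as bars and the median of all genes as a grey line. The histone genes have a median of 1.33, the chaperones -1.04 and the S-phase genes -1.56. With poly(A) control scaling the neighbours' median is below 0, and that of all genes is -0.93.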

How the data were processed

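Per the labels' protocols, Trizol was used to isolate total RNA of 2 cultures and biotin was the label. The authors deposited intensity values on a linear scale, with 1 signal for each probe set. MAS5 is the method in the submitters' processing notes. It scales each array globally and makes weak signals noisy, and its version and target are unknown here. With 1 array per group, the number of arrays limits precision and no test was run. Of 54675 probe sets, 62 controls were left out. GEO's platform annotation gave 1 gene symbol for 41091, several for 1801 and none for 11721. A RefSeq table (GRCh38.p14) held 41037 of the named ones and was used for names and gene order only, since no build is named for the array. Each gene was read through its brightest probe set by mean log2 value over both arrays. Signals below the floor (50th percentile, 84.1) were set to it, and 2-fold differences were counted. A cluster was a run of RefSeq histone genes with at most 100 genes between successive members, and its other genes were the neighbours. Promoters came from RefSeq, 1 start per gene. Members and lists were chosen with earlier results of these data known. Every measured member was named, with up to 4 genes of each related list by size of difference. The polyadenylated core list, from textbook knowledge, was H2AC6, H2BC4, H2BC5, H2BC12 and H2BC21. Calling was tried on a simulated pair of arrays, with shifts larger than 2-fold planted only in genes well above the floor. It therefore tells nothing about calls on signals near the floor. Alternatives were scaling by median, quantiles, loess (span 0.3) or poly(A) controls, a floor at percentile 40 or 60 or none, adding the floor to each signal before log2, averaging a gene's probe sets, and dropping shared-sequence probe sets (names in _s_at, _x_at or _a_at). Python 3.11.15, numpy 2.4.6, pandas 2.3.3, statsmodels 0.14.6 and matplotlib 3.10.9 were used.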

Additional observations from a re-analysis of the deposited data

How the results depend on the processing

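Of 80 summary values under 10 alternatives, 71 moved by less than 1.5-fold and 9 moved further. With poly(A) control scaling the count of members at least 2-fold higher was 6 instead of 14, and the median of all members 0.67, of core genes with polyadenylated transcripts 1.26, of other core genes 0.36 and of the neighbours -0.31. Without a floor, where all 50 members enter, 27 members were higher and 3 lower, against 4232 higher and 2431 lower of 19775 genes. Without probe sets whose names mark shared sequence, 12 measured members were left. Of these 6 were higher, against 12.7% of all genes in this setting, and the linker median was 2.11 over 2 genes. Of 403 values of named genes 333 moved by less than 1.5-fold. With poly(A) control scaling H2AC17 (-0.015), H4C11 (-0.33) and H1-10 (-0.67), like the neighbours' median, crossed 0. The median of all genes was -0.93 in this setting. GINS2 crossed 0 at 1.25 without shared-sequence probe sets. The cause of these shifts was not tested, apart from the fewer genes left by dropping probe sets and the added weak signals without a floor. Bounds of genes below the floor moved with it: H2AC8 stood at 2.87 with the 40th percentile and 1.25 with the 60th, H2BC21 at 2.52 and 0.90, and H1-3 at 1.75 and 0.13. No paired analysis was possible because each group has 1 array. Signal over background limits the 27 members below the floor on both arrays, for which no difference is given.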
